A study of Macaca mulatta with 35 samples.

Results

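The 31 transcripts described here stood at alike levels in granulosa cells and oocytes of the rhesus monkey (Macaca mulatta) ovary and at a lower level in cumulus cells. They were chosen by measured values. The mean of log2(TPM + 1) was taken over all libraries of each cell type, where TPM is a level scaled by transcript length and library total. A transcript was kept if its mean estimated count was at least 50 in granulosa cells and in oocytes, if these means differed by less than 1 on the log2 scale, and if the lower of them lay more than 1 above the cumulus mean. The distance of that lower mean from the cumulus mean is called the gap. Of 49537 transcript IDs, 13979 had enough counts, 6763 of these were at alike levels in granulosa cells and oocytes, and 31 of the 6763 passed the gap. Up to 100 were allowed, so no transcript was left out by rank. The label of the list matched these values by construction.

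The study sequenced RNA from 3 cell types of single antral follicles, the stage with a fluid-filled cavity, in 3 follicle sizes labelled small, medium and large. Ovaries came from adult females at necropsy, taken for reasons that would not affect reproduction. No treatment or altered genotype is labelled for any group, and age is not given. The 9 groups of cell type and size held 4 libraries each, except cumulus small with 3, which made 11 cumulus, 12 granulosa and 12 oocyte libraries. PicoPure extraction was followed by amplification in the Ovation system (RNA-Seq System v2). A library is named by its cell type, its size group and the number that ends its title, from 1 to 4. The labels give neither the meaning of that number nor the animal or follicle of a library, so p-values reflect the spread among libraries, part of which may be technical.

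Cumulus cells are the follicle cells that surround the oocyte and send fine projections through its coat, while granulosa cells line the follicle wall. Both somatic types descend from the same granulosa layer and separate as the cavity forms. An oocyte stores transcripts for use at maturation and after fertilization. Many genes give several transcripts that share most of their sequence, and a quantifier divides reads that fit several of them, so a level of 0 for 1 transcript can go with a high level of another from the same gene.

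The deposited files do not pair transcripts with genes. None of the 49537 IDs matched the gene tables used here, so the transcripts carry no gene names, roles or sequences, and cell type identity could not be checked against marker genes.

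Total estimated counts per library ran from 20780476 to 52350387. Libraries were described without gene names through 707 transcripts, called oocyte-predominant. Their mean CPM (count per library total, without length) was at least 10 in oocytes and at least 100 times the somatic median. They and the reverse set below were picked by the labels of these same libraries, so their shares do not check cell type identity. The 707 held 3.51 to 9.18% of counts in oocyte libraries. In 6 somatic libraries they held over 0.2%, namely cumulus small 1 (0.306%), small 2 (0.243%), medium 2 (0.352%) and large 3 (0.423%), and granulosa medium 4 (0.215%) and large 1 (0.316%). In the other 17 somatic libraries the share was at most 0.0967%. The reverse set of 153 transcripts, high in somatic cells over oocytes, held 5.48 to 7.19% in the 3 granulosa libraries numbered 4, 2.13% in granulosa small 2 and at most 0.742% in the remaining granulosa libraries. It held 3.20 to 3.56% in cumulus small 3, medium 4 and large 4, with at most 0.807% in the other cumulus libraries, and 0.775 to 1.18% in the oocyte libraries numbered 4, with at most 0.0531% in the other oocyte libraries. The transcript with the highest mean share over all libraries held 19.8 to 43.2% of counts in granulosa libraries. It held 12.9 to 20.3% in cumulus and 6.08 to 10.2% in oocyte libraries. In oocyte medium 2, a different transcript held 44.8% of counts. The part of these library differences in the results below was not tested beyond the values given beside them.

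The pattern was uncommon on the TPM scale. The 31 transcripts were 0.458% of the 6763 at alike levels in granulosa cells and oocytes, while 609 of the 6763 (9.0%) stood more than 1 higher in cumulus cells than in both. The median gap of the 6763 was -0.52, so the typical cumulus mean lay above the lower of the granulosa and oocyte means. Set against the higher of those means, the median cumulus difference was only 0.08, and -0.17 with TMM-scaled CPM. The same rule turned to the other cell types found more on that scale. When cumulus cells and oocytes were alike, 412 of 7392 (5.57%) were low in granulosa cells. When the somatic types were alike, 1646 of 14905 (11.04%) were low in oocytes. The count low in cumulus cells depended on scaling, since 331 of 6855 alike transcripts met the rule with TMM-scaled CPM. Other scalings were not tried for the turned rules. Among all 67 transcripts that had enough counts and lay more than 1 below both other types in cumulus cells, 36 were higher in oocytes than in granulosa cells by more than 1, none was higher in granulosa cells by that much, and the 31 were alike.

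**Figure D1:**
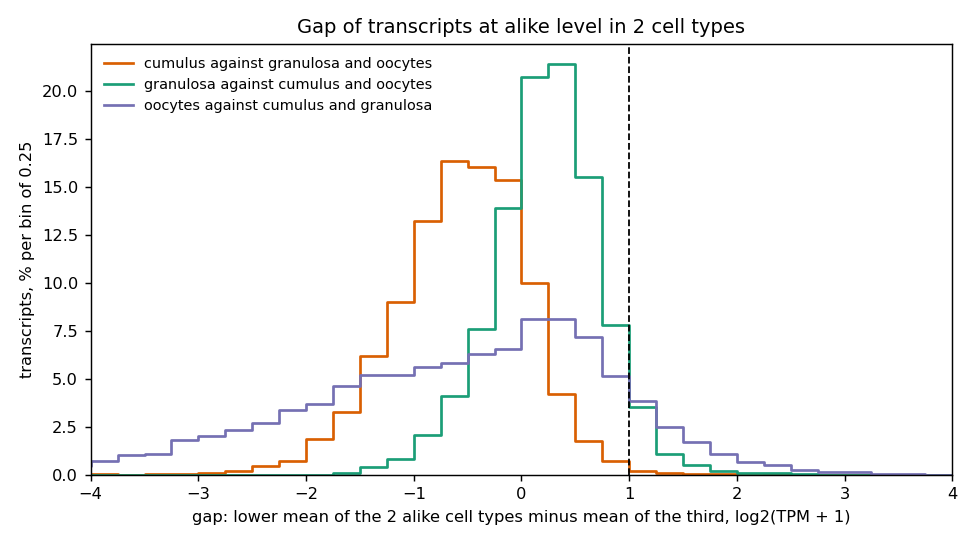
Distribution of the gap for transcripts at alike levels in a pair of cell types. The x axis is the lower mean of the alike pair minus the mean of the remaining type on the log2(TPM + 1) scale, the y axis is the percent of transcripts per bin of 0.25, each line is 1 remaining cell type and the dashed line marks the threshold of 1. The cumulus line has 31 of 6763 transcripts right of the dashed line, fewer than the 412 of the granulosa line and the 1646 of the oocyte line.

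The gap ran from 1.01 to 2.5 on the log2(TPM + 1) scale, with a median of 1.29. The means behind it chose the transcripts, so all levels against cumulus cells are descriptions without a test. Without the 6 somatic libraries over 0.2% oocyte-predominant counts the median gap of the 31 was 1.21, 26 of them kept a gap over 1, and 30 transcripts met the whole rule, 23 of them among the 31. In these bulk samples, fewer cells of a type that carries a transcript and less of it per cell cannot be told apart.

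ENSMMUT00000006672.4 had the largest gap, 2.5. Its TPM was 0, 0 and 0.129 in the 3 cumulus small libraries. In the 11 cumulus libraries the lowest was 0, the median 0.129 and the highest 8.82. The 12 granulosa libraries ran from 1.28 to 28.5 with a median of 17.5, and the 12 oocyte libraries from 9.08 to 29.3 with a median of 14.0. Every oocyte library lay above every cumulus library, whereas 9 of 12 granulosa libraries did. The mean TPM was 2.94 ± 3.64 in cumulus cells (SD, n = 11), 16.7 ± 9.60 in granulosa cells (SD, n = 12) and 14.9 ± 5.23 in oocytes (SD, n = 12).

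ENSMMUT00000055210.2 followed with a gap of 2.47, and its libraries disagreed most of all 31, with a within-group SD of 2.37 on the log2(TPM + 1) scale. Cumulus libraries ran from 0 to 20.9 TPM with a median of 4.39. Granulosa libraries ran from 0 to 93.3 with a median of 38.7, and oocyte libraries from 0 to 126 with a median of 76.0. Each cell type thus held libraries near 0 beside libraries where it was abundant. In cumulus cells, small 1, small 3, medium 1 and medium 2 held 20.9, 16.8, 14.9 and 19.3 TPM, while medium 3 and large 4 stood at 0. In oocytes, small 2 and large 2 stood at 0 beside 126 and 123 in large 3 and large 4.

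ENSMMUT00000084432.1 (gap 1.80) had the next highest within-group SD, 1.46. Its cumulus libraries reached 18.8 TPM in medium 2 with a median of 4.17, its granulosa libraries ran from 0.413 to 31.2 with a median of 18.7, and its oocyte libraries from 0 to 29.9 with a median of 16.4. The 3 cell types overlapped widely: 6 of 12 granulosa and 3 of 12 oocyte libraries lay above every cumulus library.

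ENSMMUT00000099772.1 (gap 1.78) separated the oocyte from cumulus cells more cleanly. Its cumulus libraries ran from 0 to 6.99 TPM with a median of 1.56, and its oocyte libraries from 7.605 to 19.4 with a median of 15.5. The granulosa libraries spread from 0.0467 in large 3 to 22.7 in medium 2, with a median of 8.96, and overlapped both other types.

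ENSMMUT00000020206.4 (gap 1.77) was detected in every library of all cell types. Cumulus libraries ran from 1.18 to 7.35 TPM with a median of 2.51, granulosa libraries from 3.73 to 36.2 with a median of 14.0, and oocyte libraries from 4.78 to 19.8 with a median of 14.0. All oocyte libraries but medium 2, at 4.78, were above the highest cumulus library. The granulosa libraries numbered 1 and large 3 fell within the cumulus range, at 6.94, 3.76, 4.34 and 3.73.

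The other members among the 12 with the largest gaps had lower granulosa medians than those described above. ENSMMUT00000059046.2 (gap 1.70) had medians of 0.404 TPM in cumulus cells, 6.69 in granulosa cells and 13.9 in oocytes. ENSMMUT00000022446.4 (gap 1.58) had medians of 0, 2.77 and 3.79, and ENSMMUT00000095966.1 (gap 1.52) of 0.0844, 5.45 and 9.64, in the same order. ENSMMUT00000063952.2 (gap 1.52) had medians of 2.47, 7.39 and 20.8. In these 4 the oocyte median was above the granulosa median, though the means on the log2 scale stayed within 1 by the rule. ENSMMUT00000000982.4 (gap 1.38) went the other way, with medians of 0.331, 5.31 and 3.13. ENSMMUT00000030520.4 and ENSMMUT00000001379.4 (both gap 1.37) had medians of 1.71, 5.83 and 8.82 and of 0, 3.47 and 3.80. The last was at a count of 0 in 8 of 11 cumulus libraries, but also in 2 granulosa and 3 oocyte libraries, and its within-group SD of 1.28 was the third highest.

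The 3 most abundant members over granulosa cells and oocytes were ENSMMUT00000020293.4, ENSMMUT00000055210.2 and ENSMMUT00000003396.3. ENSMMUT00000020293.4 was the single member whose estimated counts were whole numbers in every library (within 1e-06), as counts are when no read was divided among transcripts. Its cumulus libraries ran from 7.96 to 31.02 TPM with a median of 14.4, its granulosa libraries from 6.27 to 191 with a median of 27.6, and its oocyte libraries from 42.7 to 80.3 with a median of 55.5. The lowest oocyte library was above the highest cumulus library. Mean TPM was 59.0 ± 64.7 in granulosa cells and 59.0 ± 13.8 in oocytes (SD, n = 12 each), so the equal means came with a far wider spread in granulosa cells. In ENSMMUT00000003396.3 the mean was 29.2 ± 36.8 TPM in granulosa cells and 27.6 ± 6.82 in oocytes (SD, n = 12 each), beside 6.69 ± 4.0 in cumulus cells (SD, n = 11).

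The members that varied least between libraries of a group were ENSMMUT00000010876.4, ENSMMUT00000003314.4 and ENSMMUT00000110350.1, with within-group SDs of 0.60, 0.60 and 0.65 on the log2(TPM + 1) scale. All of these stood at low levels. ENSMMUT00000003314.4 was at a count of 0 in 10 of 11 cumulus libraries, with 1.21 TPM in medium 3, while its granulosa median was 1.73 and its oocyte median 2.37. ENSMMUT00000074752.2 was also at 0 in 10 cumulus libraries, but at 0 in 3 granulosa and 6 oocyte libraries as well.

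At the edge of the list, ENSMMUT00000010876.4, ENSMMUT00000023033.4 and ENSMMUT00000000261.4 were just inside with gaps of 1.06, 1.05 and 1.01. ENSMMUT00000089283.1, ENSMMUT00000065628.2 and ENSMMUT00000063515.2 were just outside, each with a gap of 0.98. At the limit of likeness, ENSMMUT00000006357.4 was just inside with granulosa cells 0.96 below oocytes, and ENSMMUT00000043541.3, with a gap of 1.96, was just outside with granulosa cells 1.22 below.

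**Figure D2:**
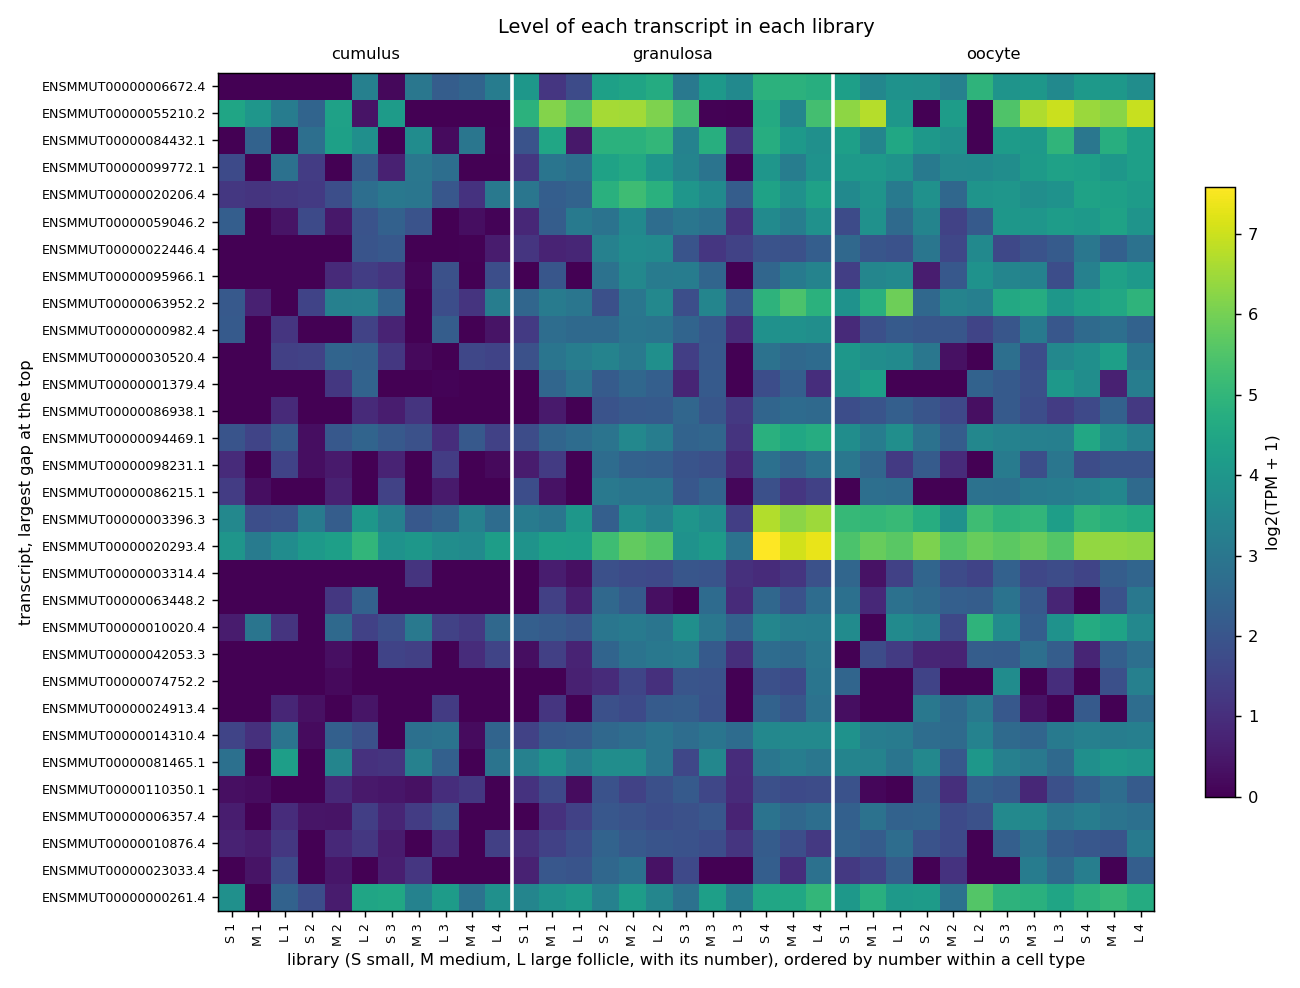
Level of each of the 31 transcripts (rows, largest gap at the top) in each of the 35 libraries (columns, ordered by library number within a cell type), as log2(TPM + 1) in colour. Dark cells prevail in the 11 cumulus columns, and the granulosa columns numbered 2 and 4 are brighter than those numbered 1 and 3.

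The cell types were also set against each other library by library. Every oocyte library was above every cumulus library for 3 of 31 members, ENSMMUT00000006672.4, ENSMMUT00000099772.1 and ENSMMUT00000020293.4, against 18.4% of the 13979 transcripts with enough counts. Every granulosa library was above every cumulus library for 0 of 31, against 0.00715% of the same 13979. These include transcripts at unlike levels in granulosa cells and oocytes, which the rule left out of the list. The number of granulosa libraries above the highest cumulus library ran from 0 to 9 of 12 over the members, with a median of 7, and that of oocyte libraries from 0 to 12 of 12, with a median of 9. ENSMMUT00000081465.1 had neither a granulosa nor an oocyte library above cumulus large 1, which held 18.0 TPM. The rule used these contrasts, so the shares are given without a reading.

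Zero counts were common among the cumulus libraries. A rounded count of 0 occurred in 122 of 341 pairs of member and cumulus library (35.8%), in 22 of 372 granulosa pairs (5.91%) and in 29 of 372 oocyte pairs (7.80%). Over the 6763 transcripts alike in granulosa cells and oocytes these shares were 3.09%, 2.44% and 3.83%. At least 1 cumulus library stood at 0 for 27 of 31 members, and at least 1 granulosa or oocyte library did so for 13 members each. A 0 may come from the division of reads between similar transcripts, and 30 of 31 members had counts that were not whole in some library. The share with whole counts, 3.23%, compares with 6.98% of the 6763. The members' median length was 2124 bases (732 to 8262), against 3266 for the 6763, and their median within-group SD was 1.0 against 0.50. Their median mean TPM was 1.02 in cumulus cells, 5.73 in granulosa cells and 7.74 in oocytes, against 3.57, 2.35 and 2.86. These features are not independent of a rule that asks for a low cumulus mean and enough counts elsewhere.

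Summed over the 31 members, cumulus libraries held 42.5 to 144 TPM, granulosa libraries 58.8 to 600 and oocyte libraries 177 to 504. The granulosa libraries numbered 4 summed to 600, 475 and 573 TPM in small, medium and large follicles, and those numbered 2 to 355, 421 and 355. Those numbered 1 summed to 121, 216 and 175, and those numbered 3 to 206, 203 and 58.8. The granulosa libraries numbered 1 and 3 thus lay below those numbered 2 and 4 in all 3 sizes, and granulosa small 1 and large 3 lay within the cumulus range. In oocytes the libraries numbered 4 summed to 480, 481 and 504, and those numbered 2, the lowest in each size, to 260, 177 and 330.

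**Figure D3:**
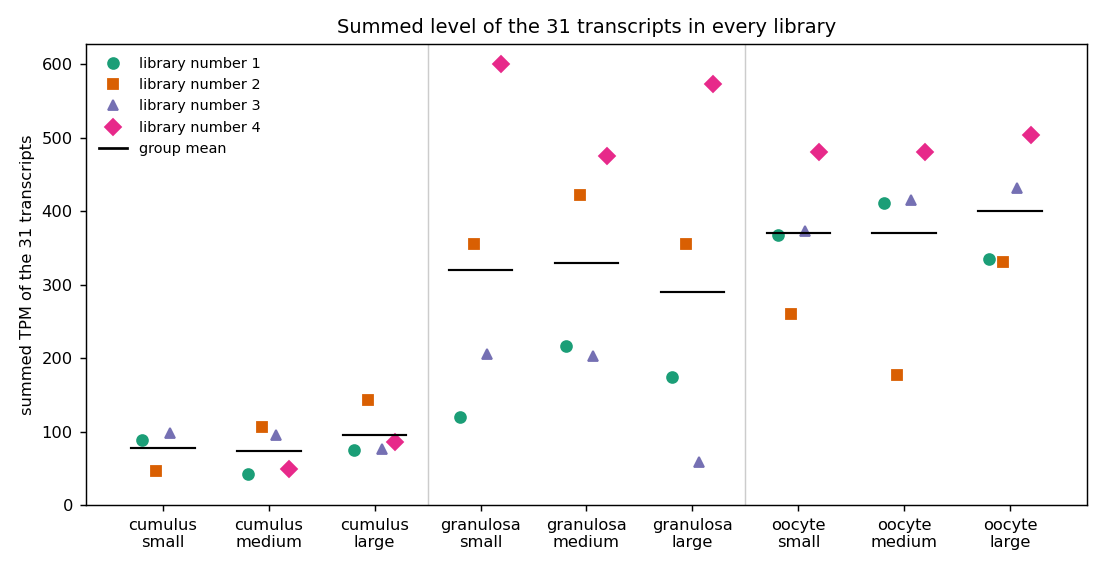
Summed TPM of the 31 transcripts in every library. The x axis gives the 9 groups, the y axis the summed TPM, each point is 1 library with colour and shape by library number and bars are group means. Cumulus libraries sit between 42.5 and 144, and the 3 granulosa points numbered 4 sit at 475 to 600, above all other granulosa points.

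Library number accounted for a median of 66.5% of the spread of a member's log2(TPM + 1) over the granulosa libraries, and follicle size for 4.38%. Labels unrelated to the data would take 27.3% and 18.2% in granulosa cells and in oocytes, and 30% and 20% in cumulus cells. Over the 6763 transcripts the granulosa medians were close to those of the members, at 64.6% and 6.81%. In oocytes number took 44.6% (38.4% over the 6763) and size 11.9% (11.9%), and in cumulus cells number took 27.4% (24.2%) and size 18.5% (15.7%).

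Most members were highest in the granulosa libraries numbered 4 or 2. Of 31 members, 18 had their highest granulosa mean in number 4, 12 in number 2, 1 in number 1 and 0 in number 3. Of the 6763, 34.6%, 11.7%, 47.8% and 5.96% did. The lowest granulosa mean was in number 1 for 19 members and in number 3 for 12, against 12.8% and 43.0% of the 6763. All 22 granulosa zeros fell in numbers 1 and 3, with 8 in granulosa small 1 and 7 in granulosa large 3. Since the 31 were chosen for a high granulosa mean, which the higher libraries set, this count is a description of the list without a test. Over 465 pairs of members the median Pearson correlation across the 12 granulosa libraries was 0.53, with 95.3% of pairs above 0, beside 0.22 and 67.8% over pairs of the 6763. Across oocyte libraries it was 0.15 (0.17) and across cumulus libraries 0.13 (0.15). The points share libraries, amplification and, for transcripts of the same gene, reads. The rule used the levels in these same libraries, so the correlations too describe the list and are no result about it.

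Split by number, the median difference of granulosa cells from the mean of all 11 cumulus libraries over the members was 0.56 for number 1, 1.65 for number 2, 1.07 for number 3 and 2.16 for number 4 on the log2(TPM + 1) scale. It was over 1 for 9, 29, 17 and 31 of the 31 members. In the 6763 the same medians were -0.19, -0.54, -0.66 and -0.22. The difference of oocytes from the same cumulus mean ranged less over the numbers, at 1.74, 1.30, 1.81 and 2.13, and over 1 for 25, 21, 30 and 31 members. The granulosa side of the pattern was therefore small in the libraries numbered 1, where 30 members still had a difference above 0.

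Every granulosa library numbered 4 was above the other 9 for 9 of 31 members, against 10.6% of the 6763. They were ENSMMUT00000006672.4, ENSMMUT00000063952.2, ENSMMUT00000000982.4, ENSMMUT00000094469.1, ENSMMUT00000003396.3, ENSMMUT00000020293.4, ENSMMUT00000014310.4, ENSMMUT00000006357.4 and ENSMMUT00000000261.4. Every granulosa library numbered 2 was above the other 9 for 4 members, against 2.13%, namely ENSMMUT00000084432.1, ENSMMUT00000020206.4, ENSMMUT00000022446.4 and ENSMMUT00000086215.1. The granulosa libraries numbered 4 are those with 5.48 to 7.19% of counts in the somatic-high set of 153, and the part of that in these values was not tested. The members thus fell into those led by number 4, those led by number 2 and the remaining 18. The rule used these granulosa levels, so the counts describe the list without a test.

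ENSMMUT00000020293.4 showed the first kind. In granulosa cells it stood at 191, 132 and 162 TPM in the small, medium and large libraries numbered 4, at 36.3, 52.8 and 45.6 in those numbered 2, at 13.9, 18.9 and 18.5 in those numbered 1 and at 13.7, 16.6 and 6.27 in those numbered 3. The oocyte libraries numbered 4, at 80.3, 80.3 and 76.8, were above the other 9 oocyte libraries, which reached 67.5. The cumulus libraries numbered 4 held 11.5 and 17.8, within the range of the others. ENSMMUT00000003396.3 had 103, 76.6 and 87.8 TPM in the granulosa libraries numbered 4 and 1.67 to 15.2 in the other 9, while its oocyte libraries numbered 4, at 30.2, 26.0 and 23.2, lay within the other oocytes.

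ENSMMUT00000022446.4 showed the second kind. Its granulosa libraries numbered 2 held 9.08, 11.9 and 11.5 TPM in small, medium and large follicles, and the other 9 at most 3.85. Oocyte libraries numbered 2 held 6.81, 2.04 and 11.2, which include the lowest and the highest oocyte value. The granulosa order was therefore not repeated in oocytes.

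**Figure D4:**
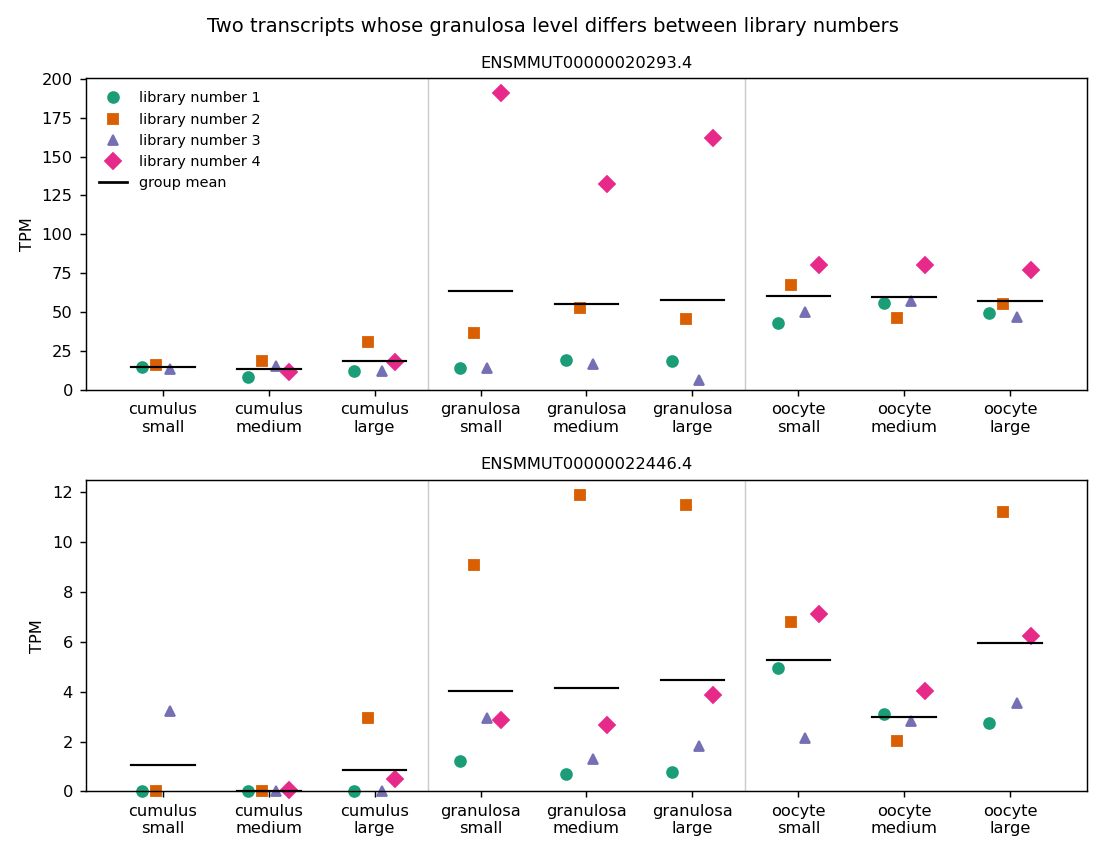
TPM of ENSMMUT00000020293.4 (top) and ENSMMUT00000022446.4 (bottom) in every library. The x axis gives the 9 groups, the y axis TPM, points are libraries with colour and shape by library number and bars are group means. In granulosa cells the points numbered 4 lead the upper panel at 132 to 191, and the points numbered 2 lead the lower one at 9.08 to 11.9.

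Whether members differed between library numbers was tested with edgeR's quasi-likelihood test of number with follicle size in the model, a test added after the data were seen. Since the rule used the means of these same libraries, the share of members called describes the list and is not a result about it. In granulosa cells 5 of 31 members passed an adjusted p under 0.05, against 4.64% of 28721 transcripts tested. They were ENSMMUT00000022446.4 (adjusted p = 0.0129), ENSMMUT00000020293.4 (adjusted p = 0.0131), ENSMMUT00000014310.4 (adjusted p = 0.0222), ENSMMUT00000063952.2 (adjusted p = 0.0307) and ENSMMUT00000020206.4 (adjusted p = 0.0436). Without each granulosa library in turn, between 1 and 8 members passed. The shares of all transcripts in fits with left-out libraries are not given here, so these counts are not set beside them. Such fits also have fewer libraries to test with. ENSMMUT00000022446.4 remained in 10 and ENSMMUT00000020293.4 in 9 of these 12 fits, and the others in at most 5. Without granulosa medium 4 and large 1, which had over 0.2% oocyte-predominant counts, 1 member passed, ENSMMUT00000020293.4 (adjusted p = 0.0420). The share of all transcripts in that smaller fit is not given here either, so the fall from 5 is not a result about the members. DESeq2 called 15 members, against 27.1% of transcripts, and limma 13, against 21%.

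In oocytes edgeR called 0 of 31 members for number, against 0.289% of 28769 transcripts. At an unadjusted p under 0.05 there were 4, against 12.6% of transcripts, DESeq2 called 3 (11% of transcripts) and limma 1 (1.96%). ENSMMUT00000020293.4 had an adjusted p of 0.319 in the edgeR test and was the member that limma called. In cumulus cells edgeR called 0 of the 27 members tested (0% of 31869), with 3 at an unadjusted p under 0.05 (2.64% of transcripts), 1 by DESeq2 (0.938%) and 0 by limma (0%). Cumulus small 3 resembled cumulus medium 4 and large 4 in its counts of the somatic-high set, so the cumulus numbers may not run in step with each other. Whether the effect of number differed between cell types was not tested.

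The study compares follicle sizes, which the rule did not use. No member passed edgeR's test in any of the 9 comparisons of sizes within a cell type or the 3 comparisons of the large against small change between cell types. Of all transcripts tested, 0.00348% passed in granulosa medium against small and in granulosa large against small, and 0% in the other 7 comparisons within a cell type. The percentages for the changes between cell types were 0.0029% for granulosa minus cumulus, 0.011% for oocyte minus cumulus and 0.00291% for oocyte minus granulosa. At an unadjusted p under 0.05 there were 2, 2 and 1 members in cumulus medium against small, large against medium and large against small, 0 in each granulosa and oocyte comparison, and 1, 2 and 0 in the 3 comparisons between cell types. Over all transcripts tested the shares at that p were 3.69%, 3.66% and 3.72% in cumulus cells, 1.09 to 2.27% in granulosa cells and oocytes and 3.87%, 5.31% and 5.27% between cell types. DESeq2 called 4 results of 2 members, in cumulus cells and in the comparisons with them, and limma called 0. In the other comparisons DESeq2 called no member, against 0.0905%, 0.129% and 0.139% of transcripts in granulosa medium against small, large against medium and large against small, 0.129%, 0.139% and 0.153% in the same comparisons of oocytes, 0.59% in cumulus large against small and 1.37% in oocyte minus granulosa. limma called 0.00274% of transcripts in oocyte minus cumulus, 0.00581% in oocyte minus granulosa and 0% elsewhere. Of the members, 4 were too low for a test within cumulus cells, and the 27 tested passed the filter through the libraries that held them. An uncalled member is not shown to stay level.

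The fitted changes within granulosa cells and oocytes were mostly small beside their errors. From small to large follicles the members' median log2 difference was -0.26 in granulosa cells, with 8 higher and 23 lower, and -0.05 in oocytes, with 15 higher and 16 lower. Over all transcripts tested the medians were -0.02 in both. The median standard error was 1.11 in granulosa cells, where the fit leaves the spread between numbers in the error, and 0.69 in oocytes. From medium to large follicles 26 of 31 members were lower in granulosa cells, with a median of -0.33, and from small to medium 19 were higher, with a median of 0.11. ENSMMUT00000020293.4 had a log2 difference of -0.01 ± 1.06 (SE) from small to large in granulosa cells and of -0.17 ± 0.26 (SE) in oocytes (adjusted p = 0.99995 in both by edgeR). Its granulosa TPM within small follicles alone ran from 13.7 to 191.

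The members with the smallest p within granulosa cells were ENSMMUT00000081465.1, lower by a log2 difference of -1.17 ± 0.59 (SE) from medium to large follicles (adjusted p = 0.9998), and ENSMMUT00000000261.4, at 0.77 ± 0.47 (SE) from small to medium (adjusted p = 0.9997 by edgeR). In granulosa medium libraries ENSMMUT00000081465.1 held 13.7, 12.1, 10.5 and 8.32 TPM, and in large ones 8.63, 6.71, 0.957 and 7.07. These overlapped through granulosa large 1 and medium 4. In oocytes ENSMMUT00000063952.2 had the smallest p, with 0.91 ± 0.53 (SE) from small to large (adjusted p = 0.99995 by edgeR). Its oocyte TPM was 13.6, 4.94, 23.0 and 19.4 in small follicles and 58.7, 8.71, 15.1 and 29.4 in large ones, ranges that overlap.

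Cumulus cells gave larger fitted changes with wider errors. The members' median log2 difference from small to large was 0.61, with 21 of 27 higher and a median standard error of 1.95, against a median of -0.01 over all transcripts tested. Cumulus large 2 held 144 TPM summed over the members, and the other cumulus large libraries 75.0 to 86.6. Its part in the count of higher members was not tested. ENSMMUT00000006672.4 moved from 0, 0 and 0.129 TPM in small follicles to 0, 0, 7.12 and 4.42 in medium and 0, 8.82, 3.71 and 8.10 in large ones. Its log2 difference was 6.76 ± 2.82 (SE) from small to large (adjusted p = 1 by edgeR). Without cumulus small 3, the one small library with counts, the small group stood at 0 and the fitted value of 11.02 is no measure of size. The gap of oocytes over cumulus cells changed for it by -6.70 ± 2.33 (SE) from small to large (adjusted p = 0.873 by edgeR), and the gap of granulosa over cumulus cells by -6.73 ± 2.52 (SE) (adjusted p = 0.99997). Without each library in turn these values ran from -10.9 to -6.15 and from -10.7 to -6.15, the lowest again with the small group at 0. Only 7 counts in all were assigned to it in the 3 cumulus small libraries. Cumulus small 1 and small 2 are among the libraries with over 0.2% oocyte-predominant counts, as is cumulus large 3.

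ENSMMUT00000000982.4 stood at 0 counts in all 4 cumulus medium libraries. It held 3.39, 0 and 0.687 TPM in cumulus small and 1.26, 1.85, 3.68 and 0.331 in cumulus large libraries. Against a floor of 3 counts over the medium libraries it was at least 66.1-fold higher in small and at least 78.6-fold higher in large follicles. These bounds cover counting error only. The transcript's counts were not whole in some library, so a 0 may come from the division of reads. Without cumulus small 1, which held 121 of its 142 counts in small follicles, the first bound was 15.6-fold, and without cumulus large 3 the second was 47.9-fold. edgeR called neither comparison (adjusted p = 1 in both), while DESeq2 called both (adjusted p = 0.0219 and 0.00861), where it called 0.637% and 0.342% of all transcripts. In granulosa medium libraries the same transcript held 3.25 to 13.3 TPM and in oocyte medium libraries 2.60 to 7.55.

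ENSMMUT00000001379.4 had 0 counts in all 3 cumulus small libraries and 264 in the 4 cumulus large ones (4.31 TPM in large 2 and 0.0556 in large 3). It is 1 of the 4 members too low for a test within cumulus cells, and entered the comparisons between cell types through the granulosa or oocyte libraries. DESeq2 called its large against small change in granulosa minus cumulus cells (adjusted p = 2.23e-07) and in oocyte minus cumulus cells (adjusted p = 9.96e-06), where it called 0.965% and 1.38% of transcripts. edgeR gave adjusted p = 0.99997 and 0.964 for these. DESeq2's log2 differences there, -22.4 and -22.7, are no measure of size, because the cumulus small libraries all stood at 0. The 2 comparisons share the cumulus libraries, where most of its counts in large follicles came from cumulus large 2. The part of that library in the DESeq2 calls was not tested. Over the 31 members the median change of the gap from small to large was -1.08 for granulosa over cumulus cells and -1.01 for oocytes over cumulus cells, with 23 of 31 below 0 in each, against -0.02 and 0.06 over all transcripts tested. For oocytes against granulosa cells it was -0.01, with 15 above and 16 below 0. Over the 27 members that could be tested in cumulus cells, 20 and 19 were below 0 in the first 2 comparisons, with medians of -1.08 and -0.98. The 4 others had no usable cumulus change. All these counts share the same cumulus libraries, among them cumulus large 2 with its high summed TPM.

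**Figure D5:**
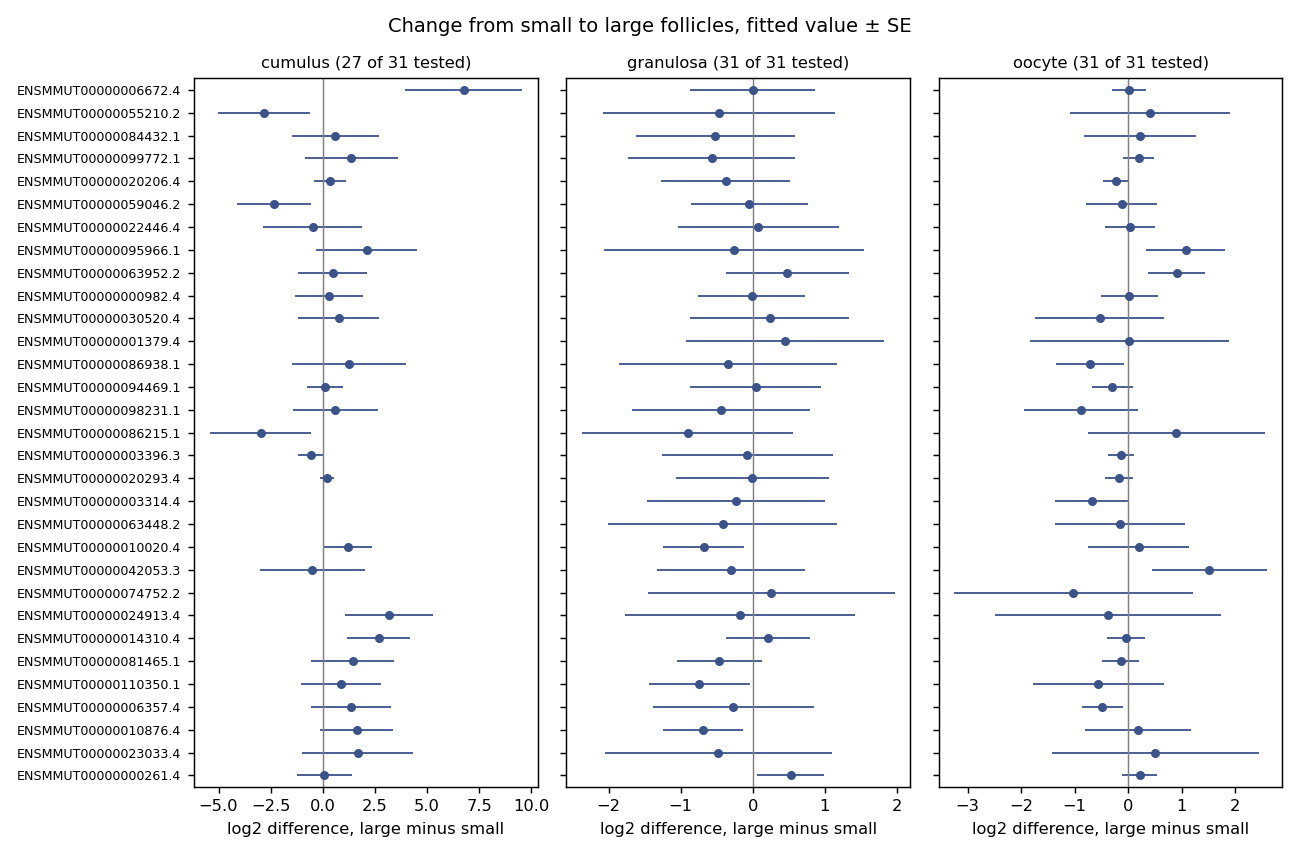
Fitted log2 difference of large minus small follicles for each member (rows, largest gap at the top) in cumulus cells, granulosa cells and oocytes, with its standard error as a bar. Members without a point in the cumulus panel were too low to be tested. The cumulus panel has 27 points with a median of 0.61, and the granulosa and oocyte panels have 31 points each with medians of -0.26 and -0.05.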

How the data were processed

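RNA of cumulus cells, granulosa cells and oocytes was measured in 35 libraries. The submitters' processing notes name bcl2fastq 2.19.1 and kallisto 0.44.0. Genome build and annotation: not given in the sources used here. Per the file headers, each deposited table holds estimated counts and TPM per transcript, with transcript and effective lengths, and the deposited lengths were the same in all tables. The authors' estimated counts divide reads among similar transcripts, so an estimate of 0 need not mean absence. The deposited TPM values, which the authors' quantifier scaled by length and library total, chose and describe the members on the log2(TPM + 1) scale, with a pseudocount of 1 that understates changes of low transcripts.

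Estimated counts were rounded and tested per transcript with edgeR 4.0.16 in R 4.3.3 (robust quasi-likelihood, TMM, low-count filter by group with a minimum of 10, Benjamini-Hochberg adjustment over all transcripts, called under 0.05). Size comparisons within a cell type used that type's libraries alone, and differences between cell types used both types. The number tests, the fits without 6 libraries and the gap from mean TPM were added after seeing the data. Alternatives used DESeq2 1.42.0, limma 3.58.1 (voom with sample weights), other scalings, filters, pseudocounts and left-out libraries. Floors cover counting error only, since amplified reads are not independent molecules.

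The members and lists were chosen with earlier results of these data known. Named transcripts were the 12 with the largest gap, 3 on each side of the gap threshold, the smallest p per direction in each size test (the few of interest are printed), the 3 most abundant and the 3 most and 3 least variable; the others named were singled out after their values were seen. Of 49537 IDs, 0 matched the gene tables, so the planned gene and marker lists could not be used.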

Additional observations from a re-analysis of the deposited data

Results flagged for a closer look

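In 8 groups of 4 libraries, the highest or lowest library was set against the other 3 for the summed measures and for the 12 members with the largest gap. Of 128 groups tested, 17 had a library farther from the others than Dixon's 95% limit for 4 values, and chance flags about 1 in 20.

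Oocyte-predominant counts were high in cumulus medium 2 (0.352%), cumulus large 3 (0.423%) and granulosa large 1 (0.316%), where the other 3 libraries held at most 0.0439%, and low in oocyte medium 2 (3.51% against at least 7.67%). Cumulus large 2 was high in the members' summed TPM (144 against at most 86.6), in their mean log2(TPM + 1) (1.76 against at most 1.23), in ENSMMUT00000084432.1 (12.7 TPM against at most 0.165) and in ENSMMUT00000001379.4 (4.31 TPM against at most 0.0556).

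Cumulus medium 3 was high in ENSMMUT00000099772.1 (6.99 TPM against at most 7.6e-05). Cumulus medium 2 was high in ENSMMUT00000095966.1 (0.878 TPM against at most 0.0844) and ENSMMUT00000001379.4 (1.33 TPM against 0). Cumulus large 1 was high in ENSMMUT00000055210.2 (8.03 TPM against at most 0.308). Granulosa small 1 had 8 members at 0 counts, against at most 1 in the other 3. ENSMMUT00000055210.2 was at 0 TPM in granulosa large 3 (others at least 38.8) and in oocyte small 2 (others at least 44.1). ENSMMUT00000084432.1 was low in oocyte small 4 (7.0 TPM against at least 15.6) and at 0 in oocyte large 2 (others at least 18.6).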

How the results depend on the processing

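The gap of all 31 members stayed above 0 under every setting tried for it, which the choice of members favours. The median gap was 1.29, 1.18 to 1.40 without each library, 0.53 with a pseudocount of 5, and 2.51 with a pseudocount of 0.1. The number of transcripts meeting the rule, 31, moved to 135 and 5 with pseudocounts of 0.1 and 5, to 331 with TMM-scaled CPM (19 of the 31 among them), to 67 with TPM without the 4 most abundant transcripts, to 54 with medians over libraries and to 1 with whole counts alone, and ran from 27 to 41 without each library. In the size tests DESeq2 called 4 members' results in all where edgeR called 0, 1 each in cumulus medium against small, cumulus large against medium, granulosa minus cumulus and oocyte minus cumulus. With the library number as a replicate block 0 members were called in every size test, as without it. Of all transcripts the block fits called 13 of 36437 in oocyte minus cumulus, 1 of 34410 in oocyte minus granulosa and 0 elsewhere. The median standard error of the members' granulosa large against small difference was 0.83 with the block and 1.11 without. Same-numbered libraries correlated in their deviations from group means by 0.096 to 0.381 in granulosa cells (median 0.243, 11 of 12 pairs over 0.1, against a median of -0.086 for different numbers), 0.023 to 0.229 in oocytes and -0.132 to 0.104 in cumulus cells. The labels tie the number to no animal or batch and not every pair exceeds 0.1, so the block stays an alternative, and the granulosa values are a hint from the data only. The 5 members called for number in granulosa cells became 15 with DESeq2 and 13 with limma. They became 1 without the libraries over 0.2% oocyte-predominant counts and 1 to 8 without each library. In oocytes 0 became 3 with DESeq2, 1 with limma and 0 to 1 without each library, and in cumulus cells 0 became 1 with DESeq2. Shares over all transcripts in the fits with left-out libraries are not given. Among single members that were not called, the log2 difference turned for ENSMMUT00000010020.4, granulosa medium vs small, without granulosa small 3 (-0.59 to 0.17 without each library); for ENSMMUT00000003396.3, granulosa large vs medium, to -0.90 with limma, -0.30 with the replicate block, and without granulosa medium 1 or large 4 (-1.69 to 1.15); and without granulosa large 4 for ENSMMUT00000000261.4, granulosa large vs small (-0.086 to 0.90), and ENSMMUT00000000261.4, oocyte minus granulosa, large vs small (-0.69 to 0.24). The cause of these shifts was not tested. Values at or near 0 counts, 35.8% of the pairs of member and cumulus library, limit the fitted cumulus changes.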
